A study of Mus musculus with 31 samples.

Results

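Interferon-induced GTPases of the guanylate-binding protein (GBP) family and the immunity-related GTPase (IRG) family were followed in a mouse model of T cell-driven hippocampal inflammation. The 10 genes were taken by symbol from the 15648 genes of the count table, and each of the 10 symbols was found on exactly 1 gene. Gbp2, Gbp3, Gbp7 and Gbp10 are the 4 GBP members, and Irgm1, Irgm2, Igtp, Iigp1, Ifi47 and F830016B08Rik are the 6 IRG members. Bulk RNA-seq of the left hippocampus was available from 31 adult OT-I/Rag-/- mice, which were compared in 8 groups. All mice carried the OT-I transgene, which gives CD8 T cells 1 fixed receptor against chicken ovalbumin (OVA), on a background without Rag1, the enzyme that rearranges receptor genes, and the OT-I cells are thus the lymphocytes with an antigen receptor in these animals. Animals of the rAAV-OVA group had received rAAV-hSyn-OVA-mCherry and mice of the rAAV-control group rAAV-hSyn-mCherry, in both hippocampi. The hSyn promoter is active in neurons, so that OVA comes from neurons and both vectors carry mCherry. Tissue was taken 2, 5, 8 or 28 d after injection from 4 mice per group, except for the rAAV-control group at 8 d, which held 3. By the labels 23 mice belonged to batch 1, and batch 2 held the other 8, which were 2 mice in each group at 2 d and at 28 d.

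GBP and IRG proteins are made by many cell types after exposure to interferon, above all interferon-γ, whose receptor signals through JAK kinases and on to the transcription factor IRF1. GBPs are large, dynamin-like GTPases that assemble on the membranes of pathogen-containing vacuoles and on bacteria in the cytosol, where they help to break them open and to alert inflammasomes. Among the IRG proteins, Irgm1, Irgm2 and Igtp (also called Irgm3) sit on the membranes of the cell itself and hold the effector IRG proteins inactive there, while effectors such as Iigp1 (Irga6) and Ifi47 (Irgd) load onto vacuoles that lack these guards. In brain tissue microglia, astrocytes, endothelial cells, neurons and invading leukocytes can all answer interferon. Bulk tissue does not show which of these cells made a transcript, and fewer cells of a type cannot be told apart from less RNA per cell.

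Promoter windows of members are shown first, because the 10 genes moved together. RefSeq windows on the GRCm38.p6 assembly, reaching from 250 bases before the transcription start to 50 bases after it, were matched by symbol for 7 of the 10 members, with 8 windows because Gbp3 has a pair of starts. Gbp10, Iigp1 and F830016B08Rik had none. The 250 bases before the start were searched on both strands for GAAA, any 2 bases and GAAA, the core of the interferon-stimulated response element (ISRE) bound by IRF factors, and for TTC, any 3 bases and GAA, the core of the gamma-activated site (GAS) of interferon-γ target genes. Neither pattern contains the other, but they can overlap. The ISRE pattern was present before the start in 6 of the 7 members, and the same letters occur in 2.98% of all 32851 mouse windows. Members are counted by gene and the background by window. The Gbp3 window of the later start held neither pattern. The GAS pattern was present in 3 of the 7 members, Gbp7, Igtp and Irgm2, and in 7.02% of all windows. Ifi47 held neither pattern in its window. The stretches around the ISRE matches are printed 5′ to 3′ in the direction of the gene, with the matched bases in capitals; a match on the opposite strand reads TTTC.
Gbp2, chr3:142620579-142620638, plus strand: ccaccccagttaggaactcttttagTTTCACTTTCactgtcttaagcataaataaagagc
Gbp3, chr3:142559974-142560039, plus strand: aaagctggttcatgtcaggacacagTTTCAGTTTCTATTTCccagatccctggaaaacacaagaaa
Gbp7, chr3:142530258-142530317, plus strand: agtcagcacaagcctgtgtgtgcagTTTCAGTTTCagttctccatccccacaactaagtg
Irgm1, chr11:48871421-48871475, minus strand: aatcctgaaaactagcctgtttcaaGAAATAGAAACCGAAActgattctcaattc
Igtp, chr11:58199497-58199555, plus strand: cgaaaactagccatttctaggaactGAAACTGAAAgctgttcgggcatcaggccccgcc
Irgm2, chr11:58214888-58214947, plus strand: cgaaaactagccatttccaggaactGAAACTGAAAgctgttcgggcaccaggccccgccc
The capitals lie close to the start in all 6 genes. Counted from -1 at the last base before the start, the match began at -59 in Gbp2, at -53 in Gbp7, at -34 in Igtp and at -64 in Irgm2, and overlapping pairs began at -45 and -39 in Gbp3 and at -30 and -24 in Irgm1. The stretches of Igtp and Irgm2 differ in 2 of the 59 bases printed for both, and in each a GAS match lies just before the capitals, at -45 in Igtp and at -75 in Irgm2. Farther from the start their windows share an identical run of 55 bases, from -181 to -127 in Igtp and from -215 to -161 in Irgm2. Between the other pairs of searched members the longest identical run was 13 bases. Gbp7 holds GAS matches at -106 and -87. These matches describe letters and are not measured binding sites.

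Similarity between family members also sets how far single genes can be separated in the counts. The share of 31-base words of each member that also occurs in transcripts of another gene was computed from the GENCODE M21 transcripts. It was highest for Gbp10, with 89.8%, and 80.8% of the words of Gbp10 occur in Gbp6. For Igtp the share was 15.9%, all of it found in Irgm2, and for Irgm2 it was 10.7%. In Gbp7, 14.7% of the words were shared, chiefly with the predicted gene Gm43802 (10.8%). The shares of the other 6 members ran from 2.88% in Irgm1 to 7.74% in F830016B08Rik. Reads from shared stretches are divided between genes by probability during counting, so Gbp10 in particular is uncertain as a single gene. The sum of the 10 members is therefore given beside each of them, in counts per 1000000 (CPM) scaled with TMM factors.

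Total counts ran from 19046977 to 57407902 per mouse, and the TMM factors from 0.897 to 1.11. Summed markers of hippocampal neurons stood between 3180 and 11300 CPM in all 31 mice. Of 10 CD8 T cell markers listed, 5 were in the table, and their sum ran from 3.89 to 16.3 CPM in the rAAV-control mice other than D720 at 8 d (119 CPM) and in all rAAV-OVA mice at 2 d. It ran from 64.2 to 1110 CPM in the rAAV-OVA mice from 5 d on. As single libraries, 4 mice stood apart from their groups in the members' sum. These were the rAAV-OVA mouse BEC-B542 at 2 d, the rAAV-control mouse D724 at 5 d, the rAAV-control mouse D720 at 8 d and the rAAV-OVA mouse D844 at 28 d. They were chosen after the values were seen and by no fixed limit. For the members' sum Dixon's test, run in groups of 4, singled out D724 alone. BEC-B541, a rAAV-OVA mouse at 2 d with 81.7 CPM against 280 to 1400 CPM in the others of its group, also stood apart, on the low side, and is not among the 4. The counts of members called at each time and between times are given with and without the 4 mice. So are the list and marker counts that changed without them.

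In rAAV-OVA mice the members' sum was far above that of the controls at 5 d and stayed above it at 8 and 28 d. Within each group, mice are listed in the same order throughout. At 2 d the sum was 488, 279.8, 81.7 and 1399 CPM in the rAAV-OVA mice D683, D684, BEC-B541 and BEC-B542, and 176, 153, 153 and 259 CPM in the rAAV-control mice. BEC-B542 was the highest and BEC-B541 the lowest of all 8 mice at that time, so the groups overlapped. At 5 d the sum was 3548, 2103, 3000.5 and 3011 CPM in rAAV-OVA mice against 41.5, 148, 49.6 and 55.7 CPM in rAAV-control mice, with no overlap. The highest control was D724. At 8 d it was 2760.4, 1412, 2103 and 2376 CPM in rAAV-OVA mice against 55.2, 1406 and 235 CPM in the rAAV-control mice D696, D720 and D722. The lowest rAAV-OVA mouse and the control D720 were nearly level. At 28 d it was 1906, 744, 1584 and 157 CPM in the rAAV-OVA mice D661, D667, D845 and D844 against 130.4, 67.9, 28.3 and 34.8 CPM in rAAV-control mice. Here the groups did not overlap, but D844 was close to the highest control, D843.

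Expressed as the ratio of group means, the members' sum was 3.04-fold higher in rAAV-OVA mice at 2 d, 39.5-fold at 5 d, 3.83-fold at 8 d and 16.8-fold at 28 d. The mean ± SD at 5 d was 2916 ± 599 (SD, n = 4) CPM against 73.8 ± 49.98 (SD, n = 4) CPM. Without BEC-B542 the ratio at 2 d was 1.53, without D724 that at 5 d was 59.6, and without D720 that at 8 d was 14.9. Without D844 the ratio at 28 d was 21.6. The GBP members and the IRG members gave ratios of 41.3 and 38.3 at 5 d and of 16.9 and 16.7 at 28 d. No p is given for the sums, since the members were chosen with results of these data known.

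**Figure D1:**
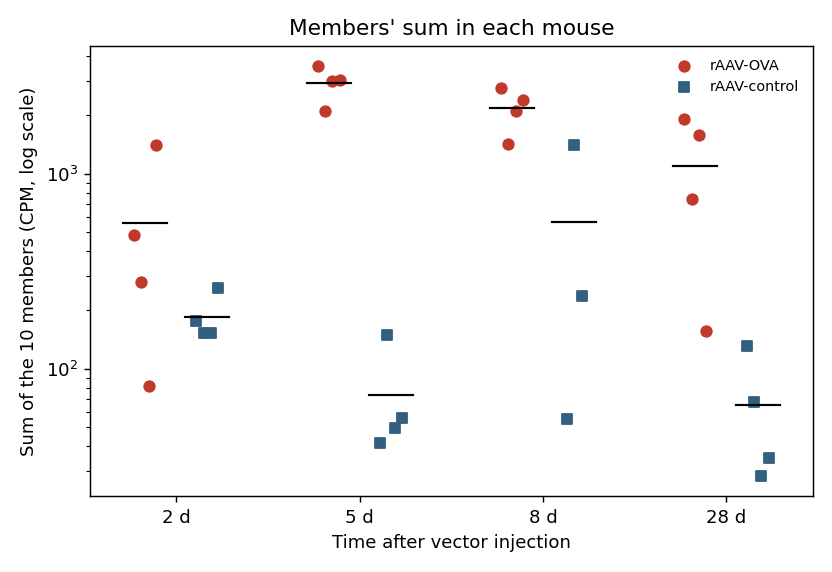
CPM of the summed 10 members on a log axis for each mouse, by time after injection, with rAAV-OVA mice as red circles, rAAV-control mice as blue squares and a black line at each group mean. All 4 rAAV-OVA mice at 5 d span 2103 to 3548 CPM and all 4 controls 41.5 to 148 CPM, while at 8 d 1 control reaches the lowest rAAV-OVA mouse.

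At 5 d all 10 members were higher in rAAV-OVA mice. With edgeR's quasi-likelihood test across the 15648 genes, and 2 surrogate variables (covariates estimated from the counts that carry spread which the 8 groups do not explain), a gene was called when its FDR (Benjamini-Hochberg) did not exceed 0.05 and its Log2FC was 0.66 or more in size. By this rule 10 of 10 members were called as increased at 5 d, where 9.63% of all genes were, and their median Log2FC was 4.63 against -0.01 over all genes. All 4 rAAV-OVA mice were above all 4 controls in each of the 10, which held for 21% of all genes at 5 d. The range of Log2FC was 3.36 to 6.24. Of the genes tested, Gbp10 and F830016B08Rik ranked 5 and 6 by Log2FC at 5 d.

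Gbp2, a GBP that carries a lipid anchor and coats vacuoles of intracellular parasites, rose at 5 d. It stood at 1036, 558, 853 and 839 CPM in rAAV-OVA mice and at 6.22, 36.4, 9.27 and 10.9 CPM in rAAV-control mice at 5 d. The lowest rAAV-OVA mouse was thus more than 10 times the highest control, D724. Its Log2FC was 4.61 ± 0.761 (SE, FDR = 0.00013). Gbp3, a neighbour of Gbp2 in the GBP cluster on chromosome 3, had 119 to 183 CPM in rAAV-OVA mice and 4.47 to 13.7 CPM in controls, and its Log2FC of 3.36 ± 0.548 (SE, FDR = 0.00012) was the lowest of the 10. Gbp7, of the same cluster, had 101 to 189 CPM against 3.804 to 9.72 CPM, and its Log2FC was 3.77 ± 0.513 (SE, FDR = 2.3e-05). Gbp10, of the GBP cluster on chromosome 5, was close to absent in controls and well measured in rAAV-OVA mice. It stood at 190.1, 112, 179 and 149.6 CPM in rAAV-OVA mice against 0.134, 3.36, 0.742 and 0.197 CPM in rAAV-control mice, where as few as 3 reads were counted in a mouse. Its Log2FC was 6.24 ± 0.98 (SE, FDR = 8.8e-05). Because of the words it shares with Gbp6, both were also summed, and the pair had 364 to 561 CPM in rAAV-OVA mice and 2.82 to 17.5 CPM in controls at 5 d, a ratio of means of 56.5.

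The 3 IRG members that guard the membranes of the cell rose with the effectors at 5 d. Irgm1, without which macrophages lose control of several intracellular bacteria, stood at 481, 314, 389 and 418 CPM in rAAV-OVA mice and at 11.5, 28.7, 11.3 and 12.8 CPM in controls. The Log2FC was 3.67 ± 0.60 (SE, FDR = 0.00012). Irgm2 had 148 to 206 CPM against 5.79 to 12.8 CPM and a Log2FC of 3.72 ± 0.639 (SE, FDR = 0.00019). Igtp, the third guard, stood at 572, 353, 502 and 492 CPM in rAAV-OVA mice and at 4.97, 23.7, 6.05 and 6.21 CPM in rAAV-control mice. D724 was again the highest control, and the Log2FC of Igtp was 4.66 ± 0.779 (SE, FDR = 0.00014). The sum of Igtp and Irgm2, whose reads are partly shared, had a ratio of means of 36.9 at 5 d.

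Among the effectors, Iigp1, which vesiculates the membrane of parasite vacuoles, stood at 506, 266, 408 and 428 CPM in rAAV-OVA mice and at 2.77, 13.8, 3.78 and 2.799 CPM in rAAV-control mice, with a Log2FC of 5.11 ± 0.822 (SE, FDR = 1e-04). Ifi47 stood at 172, 123, 157 and 148 CPM against 1.298, 5.66, 2.04 and 1.51 CPM, and its Log2FC was 4.73 ± 0.748 (SE, FDR = 9.1e-05). In both genes D724 was the highest control and still far below the lowest rAAV-OVA mouse. F830016B08Rik, an IRG gene known only by its clone name, stood at 19.4, 9.77, 17.99 and 14.2 CPM in rAAV-OVA mice and 0.0895, 0.438, 0 and 0.0359 CPM in controls. Its Log2FC was 6.15 ± 0.808 (SE, FDR = 1.6e-05), and it rests on 0 to 12 counts in each control. The 0 in D745 allows up to 3 counts, or 0.111 CPM.

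**Figure D2:**
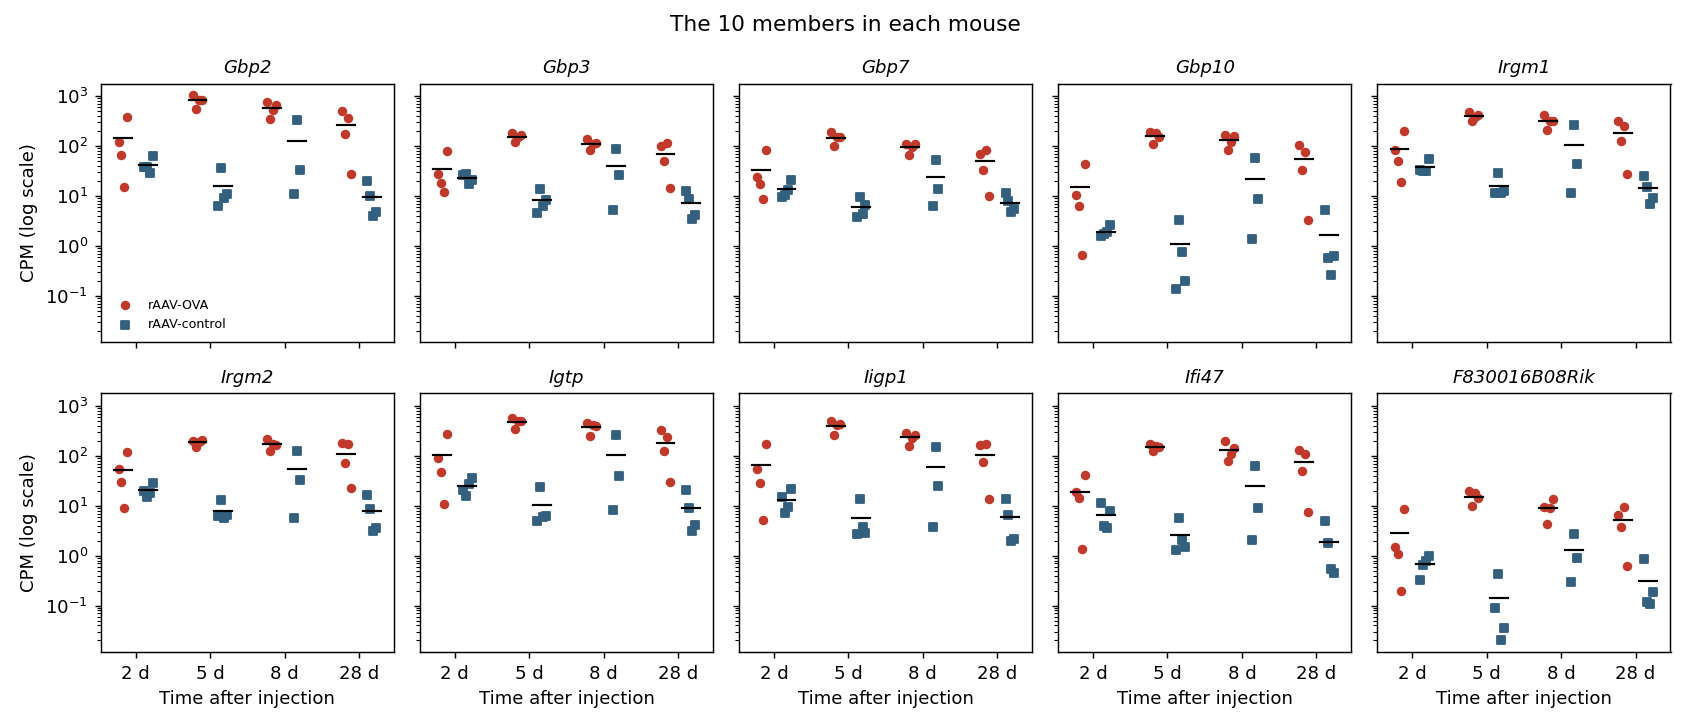
CPM of each of the 10 members on a shared log axis for each mouse and time after injection, with rAAV-OVA mice as red circles, rAAV-control mice as blue squares and black lines at group means; the control with 0 counts of F830016B08Rik at 5 d is drawn at 0.02 CPM. In every panel both groups are apart at 5 d, and at 8 d the middle control, D720, sits among or just below the rAAV-OVA mice.

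All 10 members were called at 5 d with each of the 31 mice left out in turn. In the other fits every member with a value was called, which was 7 of 7 where at least 15 counts in every mouse were required and 10 of 10 elsewhere. Without surrogate variables the 10 Log2FC at 5 d were larger, with a median of 5.63 and a range of 4.24 to 7.21. Without the 4 mice that stood apart, and with surrogate variables estimated again, the median was 6.42. Markers of other cells moved with the members at 5 d. All 5 CD8 T cell markers tested and all 8 monocyte markers were called as increased, with their sums at 222 to 290 and 586 to 1260 CPM in rAAV-OVA mice against 7.56 to 14.9 and 15.7 to 162 CPM in controls. Cd8a, among the 5, met the filter of 15 counts in 15 mice only with rAAV-OVA mice. Its calls here and at later times are therefore no separate support. Of 8 microglia markers 3 were increased and 1 was decreased. Of 8 hippocampal neuron markers 2 were decreased, as were 1 of 6 endothelial and 1 of 6 astrocyte markers, and the neuron sum ran from 5950 to 7080 CPM in rAAV-OVA mice against 9080 to 11100 CPM in controls. Without the 4 mice 3 of 8 neuron and 3 of 6 endothelial markers were decreased, and 1 astrocyte marker was also increased. The part of cell numbers in the members' increase was not tested.

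At 8 d the members were again called, with 1 control, D720, near the rAAV-OVA mice. The edgeR fit called 10 of 10 members as increased at 8 d, where 9.32% of all genes were, with a median Log2FC of 2.85 against -0.03 over all genes. The values lay between 2.01 and 3.60 and the FDR between 0.0021 and 0.019. In 6 of the 10 every rAAV-OVA mouse was above every control, which held for 14.4% of all genes at 8 d. The 4 that overlapped were Gbp3, Irgm1, Irgm2 and Igtp, and in each of them D720 was the control above the lowest rAAV-OVA mouse, D701. Igtp shows this, with 466, 253, 408 and 400.1 CPM in rAAV-OVA mice against 8.103, 266 and 39.7 CPM in the controls D696, D720 and D722. Its Log2FC was 2.81 ± 0.794 (SE, FDR = 0.017). Gbp2 stood at 754.8, 349.7, 529 and 677 CPM against 10.9, 335 and 32.9 CPM, with a Log2FC of 3.17 ± 0.79 (SE, FDR = 0.0076). Gbp10 stood at 164, 82.9, 119 and 161 CPM against 1.38, 56.9 and 8.67 CPM, with the largest Log2FC at 8 d of the members, 3.60 ± 0.909 (SE, FDR = 0.0082). Gbp7 stood at 111, 66.1, 97.2 and 112 CPM against 6.39, 53.2 and 13.9 CPM, and its Log2FC of 2.50 ± 0.519 (SE, FDR = 0.0021) had the smallest SE of the 10. Gbp3, at 2.01 ± 0.556 (SE, FDR = 0.015), had the smallest Log2FC. The guards Irgm1 and Irgm2 were at 2.31 ± 0.618 (SE, FDR = 0.012) and 2.24 ± 0.649 (SE, FDR = 0.019). The effectors Iigp1 and Ifi47 were at 2.90 ± 0.817 (SE, FDR = 0.016) and 2.98 ± 0.74 (SE, FDR = 0.0073), and F830016B08Rik was at 3.42 ± 0.723 (SE, FDR = 0.0023).

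The calls at 8 d depended on the surrogate variables and on single mice. No member was called without surrogate variables, when the Log2FC ran from 1.48 to 2.77 with FDR from 0.054 to 0.17 and 7 members had an unadjusted p under 0.05 (DESeq2 with the surrogate variables called 10). With the batch label in their place 2 were called. Leaving out D722 gave 0 calls, leaving out D696, D701 or D845 gave 2 and leaving out BEC-B541 gave 3. The Log2FC then ran from 1.48 to 2.77 without D722, from 1.10 to 2.68 without D696, from 1.36 to 2.68 without D701, from 1.40 to 2.93 without D845 and from 1.62 to 3.03 without BEC-B541. Without D720 10 of 10 were called, with Log2FC from 2.66 to 4.50. Without all 4 mice that stood apart 10 of 10 were called both with surrogate variables, at Log2FC from 2.81 to 4.69, and without them, at 2.81 to 4.72. D720 also held 119 CPM of the CD8 T cell markers against 10.4 and 12.3 CPM in the other controls at 8 d, 230 CPM of monocyte markers against 24.4 and 37.7 CPM, 1310 CPM of microglia markers against a group median of 623 CPM, and 938 CPM of the 14 genes of a list of type I interferon-stimulated genes, within the range of the rAAV-OVA mice (474 to 1070 CPM). Cd8a stood at 9.73 CPM in D720, at 1.09 and 0.517 CPM in D696 and D722, and at 52.0 to 163 CPM in the rAAV-OVA mice. At 8 d 5 of 5 CD8 T cell markers, 8 of 8 monocyte markers and 1 of 8 microglia markers were called as increased, and 0 of 6 endothelial, 0 of 6 astrocyte and 0 of 8 neuron markers were called. Without D720 4 of 8 microglia and 1 of 6 astrocyte markers were called as increased. Without the 4 mice 6 of 8 microglia and 1 of 6 astrocyte markers were increased, and 1 of 8 neuron markers was decreased. The part of these cells and genes in the result was not tested.

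At 28 d the 10 members were still higher in rAAV-OVA mice. The fit called 10 of 10 members as increased at 28 d, where 12.8% of all genes were, with a median Log2FC of 2.52 against 0.01 over all genes. Ifi47 had the largest Log2FC, 3.38 ± 0.78 (SE, FDR = 0.0025), and Gbp7 the smallest, 1.59 ± 0.503 (SE, FDR = 0.018). Every rAAV-OVA mouse was above every control in 7 of the 10, which held for 15% of all genes at 28 d, and Gbp7, Gbp10 and F830016B08Rik overlapped through D844 and D843. Iigp1 is among the 7 by a near tie, at 13.481 CPM in D844 and 13.471 CPM in the control D843. Ifi47 stood at 131, 48.6, 109 and 7.45 CPM in rAAV-OVA mice against 4.85, 1.76, 0.549 and 0.458 CPM in controls. Gbp7 stood at 70.8, 33.6, 82.1 and 9.86 CPM against 11.2, 8.1, 4.72 and 5.49 CPM. In both genes 3 rAAV-OVA mice were far above the controls and D844 was near them.

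Gbp2 stood at 494, 178, 364 and 27.7 CPM in rAAV-OVA mice against 19.7, 10.03, 4.06 and 4.71 CPM in controls at 28 d, with a Log2FC of 2.88 ± 0.75 (SE, FDR = 0.0056). Irgm1 stood at 323, 125, 249 and 27.5 CPM against 25.7, 15.04, 6.88 and 9.2 CPM, with a Log2FC of 2.14 ± 0.595 (SE, FDR = 0.0087). Iigp1 stood at 165, 74.8, 172 and 13.5 CPM against 13.5, 6.496, 1.94 and 2.197 CPM, with a Log2FC of 2.39 ± 0.79 (SE, FDR = 0.023). Among the other members, Gbp3 was at a Log2FC of 2.06 ± 0.548 (SE, FDR = 0.0065), Gbp10 at 2.87 ± 0.965 (SE, FDR = 0.025), Irgm2 at 2.50 ± 0.637 (SE, FDR = 0.0049), Igtp at 2.73 ± 0.758 (SE, FDR = 0.0086) and F830016B08Rik at 2.55 ± 0.771 (SE, FDR = 0.014). Over the 10 members the highest rAAV-OVA mouse at 28 d was 7.9 to 31.5 times the lowest. D844 also had the lowest sum of CD8 T cell markers in its group, 64.2 CPM against 471 to 1110 CPM in the other 3, and 77.8 CPM of monocyte markers against a group median of 1120 CPM. All 5 CD8 T cell markers, 7 of 8 monocyte, 6 of 8 microglia, 3 of 6 endothelial and 1 of 6 astrocyte markers were called as increased at 28 d, and 5 of 8 neuron markers as decreased. Without the 4 mice 7 of 8 microglia, 1 of 6 endothelial and 2 of 6 astrocyte markers were increased, and 2 of 8 neuron markers decreased. Their part in the members' increase was not tested. The members' Log2FC at 28 d moved with the covariates. Without surrogate variables the median was 4.07 with 10 of 10 called, and without the 4 mice that stood apart it was 3.65 with 10 of 10 called. Within batch 1, with 2 mice against 2, 10 of 10 were called with Log2FC from 3.36 to 7.45. Within batch 2, which holds D844 and D843, 0 of 10 were called, with Log2FC from 2.24 to 4.12, FDR from 0.19 to 0.28 and no unadjusted p under 0.05. Both batch fits had no surrogate variables. Their spread came from 23 mice in batch 1 and 8 in batch 2, so the counts of calls are not comparable. Leaving out D661 gave 5 calls and leaving out D851 gave 6. The Log2FC of Gbp10 ran from 2.21 without D851 to 4.69 without D843.

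**Figure D3:**
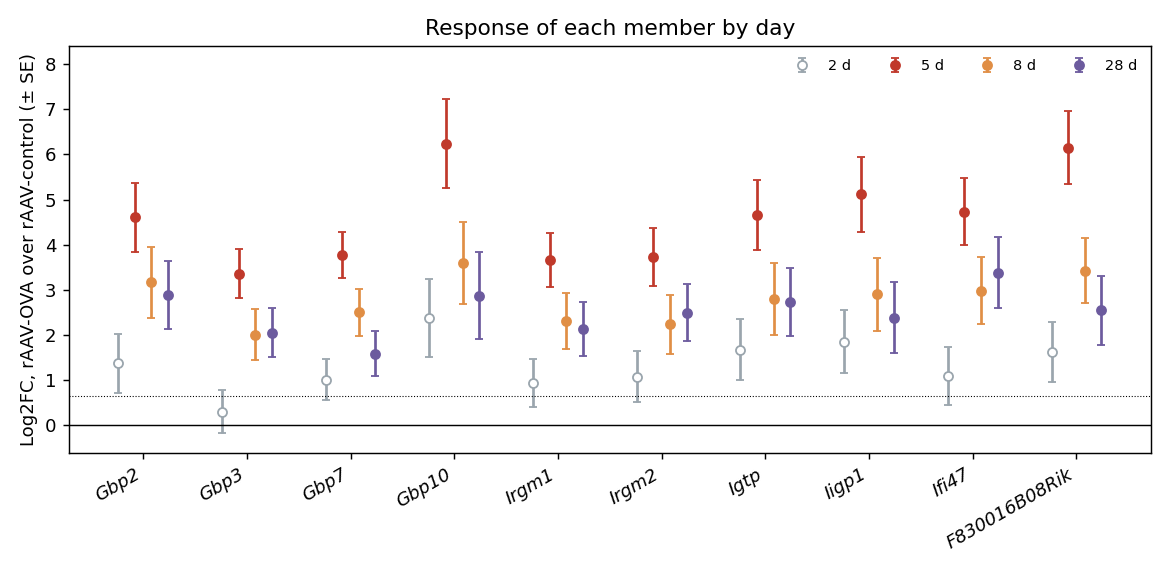
Log2FC of rAAV-OVA over rAAV-control mice with its SE for each member at 2, 5, 8 and 28 d, from edgeR with 2 surrogate variables; filled points were called, open points (2 d) were not, and the dotted line marks 0.66. Each member has its highest value at 5 d, between 3.36 and 6.24, and the 8 d and 28 d points overlap within their SE.

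At 2 d no member was called, as was no gene at all (0% of genes increased), although all 10 Log2FC were above 0. They ran from 0.31 in Gbp3 to 2.38 in Gbp10, with FDR from 0.43 to 0.89 and an unadjusted p under 0.05 in 6 members. DESeq2 also called 0 of 10. In none of the 10 was every rAAV-OVA mouse above every control, which held for 2.22% of all genes at 2 d. Gbp2 stood at 121, 66.5, 15.1 and 382 CPM in rAAV-OVA mice against 38.3, 38.7, 29.3 and 62.7 CPM in controls, and Iigp1 at 54.1, 28.7, 5.295 and 174 CPM against 14.8, 7.304, 9.24 and 21.9 CPM. BEC-B541 was below all controls in both genes, and the other 3 rAAV-OVA mice were above them. Without the 4 mice that stood apart the median Log2FC was 0.57, Gbp3 was at -0.24, no member had an unadjusted p under 0.05 with surrogate variables, and 1 did without them. The estimate moved the other way when some other single mice were left out. The median Log2FC was 1.71 without BEC-B541 and 1.79 without the control D696 of 8 d, each with such a p in 9 members. It was 1.76 with 8 such members without the control D740, and 1.43 with 9 without the control D851 of 28 d. Without D683 no member had such a p, at a median of 0.71. Without the 4 mice and BEC-B541 the median was 1.17 with such a p in 7 members. None of these fits called a member. The members were high in BEC-B542 without a rise of T cell markers, whose sum was 8.85 CPM there and 8.96 to 12.1 CPM in the other rAAV-OVA mice at 2 d, and without one of monocyte markers (69.3 CPM, against 104 to 144 CPM in the other rAAV-OVA mice and 153 to 932 CPM in controls). Cd8a had 7 counts in BEC-B542. At 2 d, batch 1 alone gave Log2FC from -0.22 to 2.32 and batch 2 alone from 1.26 to 3.33, with 0 calls and no unadjusted p under 0.05 in each.

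Differences in response between times were tested as interactions in the same fit. From 5 to 8 d the response was lower in all 10 members by the estimate (Log2FC difference from -1.27 to -2.72), but 0 of 10 were called, with FDR from 0.56 to 0.81 and an unadjusted p under 0.05 in F830016B08Rik alone, and 0.121% of all genes were called as decreased. DESeq2 called 0 as well. The estimates depended on the fit, with differences from -2.61 to -4.65 and an unadjusted p under 0.05 in all 10 members both without surrogate variables and with the batch label in their place, and such a p in 9 without the 4 mice that stood apart, with 0 calls in each. They were smaller without D720, from -0.41 to -2.41, with such a p in 0 members and 0 calls. From 5 to 28 d 2 of 10 members were called as decreased, with 2.31% of all genes. These were Gbp7, at -2.18 ± 0.639 (SE, FDR = 0.034), and F830016B08Rik, at -3.60 ± 1.1 (SE, FDR = 0.04). The other 8 differences ran from -1.22 in Irgm2 to -3.36 in Gbp10, with FDR of 0.085 or above. DESeq2 called 3. Both calls were absent without surrogate variables, and 2 members were called in 9 of the 31 fits with a mouse left out (D726, D683, D743, BEC-B544, BEC-R385, D702, D703, D696 or D706); the others gave 0 or 1. Without the 4 mice that stood apart 2 were called with and without surrogate variables. From 8 to 28 d the 10 differences ran from -0.91 to 0.40, and 0 of 10 members were called, with 0% of genes decreased, no unadjusted p under 0.05 and 0 calls by DESeq2. The direction of this difference depended on the fit. Without D720 all 10 differences were below 0, from -0.185 to -1.29, with no unadjusted p under 0.05 and 0 calls. All 10 differences were above 0 without surrogate variables, at 0.75 to 2.84 with an unadjusted p under 0.05 in 3 members, and with the batch label in their place, at 0.87 to 2.90 with such a p in 5, and 0 members were called in either.

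The same steps were compared within the rAAV-OVA mice alone. From 2 to 5 d, 4 members were called as increased, Gbp3 at 1.50 ± 0.504 (SE, FDR = 0.045), Gbp7 at 1.53 ± 0.462 (SE, FDR = 0.027), Gbp10 at 2.53 ± 0.795 (SE, FDR = 0.034) and Ifi47 at 2.19 ± 0.66 (SE, FDR = 0.028), where 6.60% of all genes were. The other 6 had Log2FC from 1.12 to 1.78 and FDR from 0.058 to 0.19. Batch cannot be separated from this step in full, since all mice at 5 d were in batch 1, and with the batch label in place of the surrogate variables 10 were called. Without the 4 mice that stood apart 10 were also called. Leaving out a single mouse gave 0 calls for D725, D726, D786, D787, D684, BEC-B541, BEC-B544, D701, D661 and D851, 1 for D703, D667 and D845, 2 for D743, BEC-R385 and D706, and 8 for D722 and D705. Exactly 4 were called in 1 of the 31 fits. From 5 to 8 d, Log2FC in rAAV-OVA mice ran from -0.15 to 0.60 and 0 of 10 members were called, with no unadjusted p under 0.05, 0 calls by DESeq2 and 2.10% of all genes called in either direction. The direction depended on the fit, as all 10 were below 0 without surrogate variables and with the batch label in their place (-0.77 to -0.13 in each) and without the 4 mice that stood apart (-0.75 to -0.10), with 0 calls in each and no unadjusted p under 0.05. The group mean of the members' sum was 2916 CPM at 5 d and 2163 CPM at 8 d. From 8 to 28 d it ran from -1.07 to -2.18, with 0 of 10 called at FDR from 0.067 to 0.26, 9 unadjusted p under 0.05 and 0.498% of genes called as decreased, and DESeq2 called 1. Leaving out D743 or D851 gave 1 call. The estimates were smaller without surrogate variables (-0.62 to -1.29) and with the batch label in their place (-0.85 to -1.51), with no unadjusted p under 0.05 in either, and without the 4 mice that stood apart (-0.88 to -1.45, 1 such p). The rAAV-control mice were compared between 2 and 28 d, where surgery is most recent and most distant. Members were at Log2FC from -0.46 in Gbp10 to 1.47 in Gbp2 at 2 d over 28 d, 0 of 10 were called, with an unadjusted p under 0.05 in Gbp2 and Gbp3 and 0 calls by DESeq2, and 2.66% of all genes were called as higher at 2 d. Gbp10 was above 0 without surrogate variables, with the batch label and with limma voom, where the lowest of the 10 Log2FC were 0.21, 0.31 and 0.62. Without the 4 mice that stood apart 2 members were called.

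**Figure D4:**
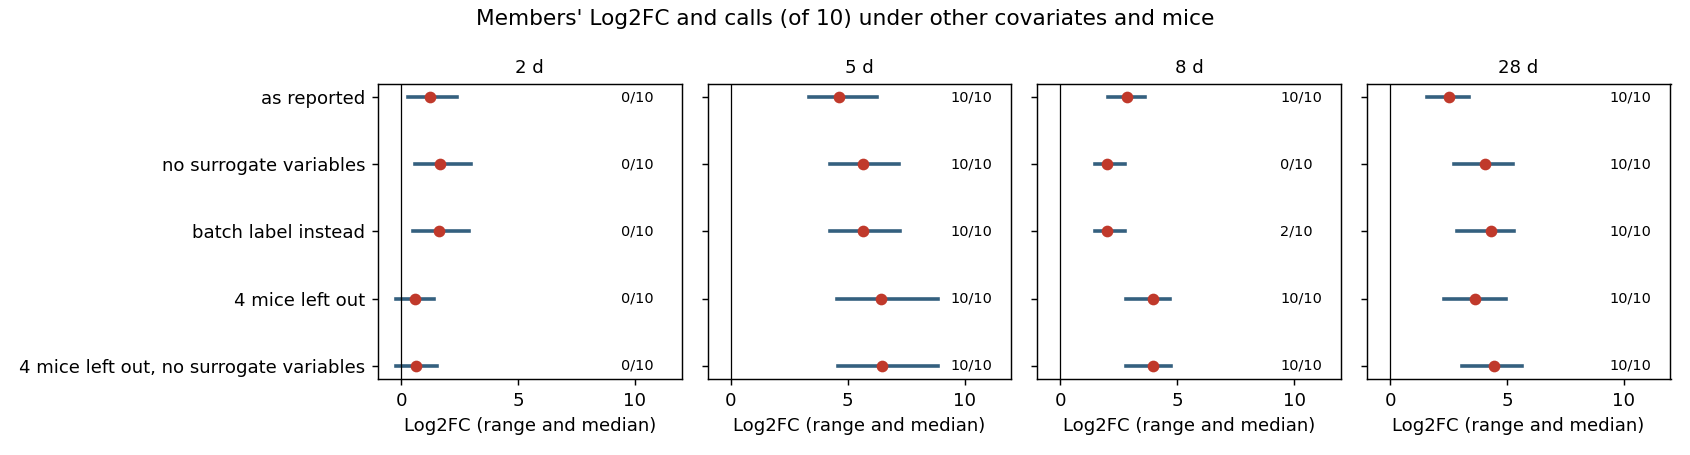
Range (line) and median (point) of the 10 members' Log2FC at each time under 5 fits, with the number of members called out of 10 at the right of each panel. At 5 d and 28 d 10 of 10 are called in each of the 5 fits, and at 8 d 0 are called without surrogate variables and 10 once the 4 mice that stood apart are left out.

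Levels were compared between members only per length, as CPM per kilobase of the longest coding transcript in GENCODE M21. In rAAV-OVA mice at 5 d Gbp2 was highest, at 327 ± 78.5 CPM per kilobase (SD, n = 4), followed by Igtp at 237 ± 45.3, Irgm1 at 177 ± 30.6, Iigp1 at 129 ± 32.1 and Ifi47 at 84.6 ± 11.6 CPM per kilobase. Each of these neighbours differed by more than the larger SD of the pair. Gbp3 (57.6 ± 10.2), Irgm2 (52.9 ± 7.41) and Gbp10 (44.7 ± 9.97) followed in CPM per kilobase, each within 1 SD of its neighbour, and then Gbp7 (26.4 ± 6.44) and F830016B08Rik (4.65 ± 1.31). In controls at 5 d Irgm1 (7.11 ± 3.73), Gbp2 (6.23 ± 5.53) and Igtp (5.05 ± 4.44) led in CPM per kilobase, and the differences between these neighbours were smaller than their SD. Without D724 Irgm1 stood at 5.25 ± 0.371 and Igtp at 2.84 ± 0.334 CPM per kilobase (SD, n = 3), and Irgm1 then lay above Gbp2 by more than the larger SD. Transcript lengths of the build used here may differ from the one used for counting, and the coding transcripts of 1 gene differ in length, from 2497 to 5614 bases for Gbp7, from 477 to 2682 bases for Gbp3 and up to 1773 bases, with a shortest below 1 kilobase, for Ifi47, and their places in this order depend on the length taken.

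The make-up of the members' sum differed between the groups at 5 d, as the members did not rise by the same factor. Gbp2 made up 26.5 to 29.2% of the sum in the rAAV-OVA mice and 15 to 24.5% in the controls at 5 d. Iigp1 made up 12.6 to 14.3% against 5.02 to 9.29%, and Gbp10 4.97 to 5.98% against 0.324 to 2.27%. The shares of Igtp, Ifi47 and F830016B08Rik were also higher in every rAAV-OVA mouse than in any control, which makes 6 of the 10. The shares of Irgm1, at 13 to 14.9% against 19.4 to 27.7%, of Irgm2, at 5.62 to 7.05% against 8.65 to 15%, of Gbp3, at 4.98 to 5.65% against 9.25 to 14.8%, and of Gbp7, at 4.79 to 5.32% against 6.56 to 11.6%, were lower in every rAAV-OVA mouse. No test was run on shares, which are parts of a sum of chosen members.

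**Figure D5:**
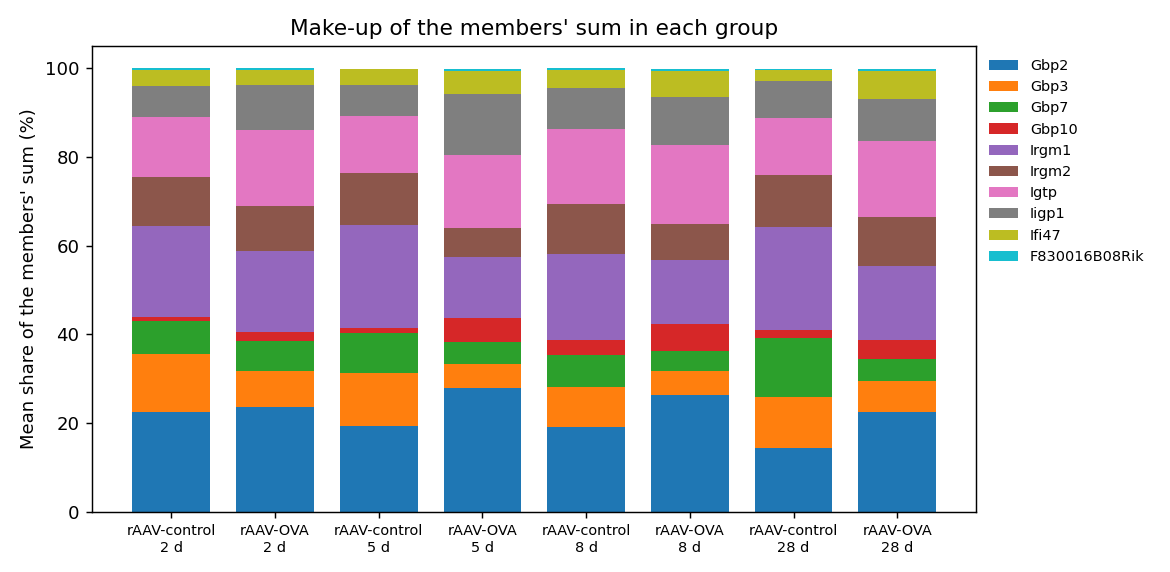
Mean share of each member in the members' sum, in percent and stacked to 100, for each group of mice. Gbp2 takes 28% of the sum in rAAV-OVA mice at 5 d and 19.4% in controls, while Irgm1 takes 13.8% and 23.2%.

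Other interferon-induced GTPases, from a list of 22 of which 19 were in the table, were called as increased in 18 of 19 at 5 d, 16 at 8 d and 15 at 28 d, and in 0 at 2 d. Their median Log2FC was 3.89, 2.80 and 2.38 at 5, 8 and 28 d. Without the 4 mice 18, 18 and 16 were called at these times, with medians of 5.03, 3.66 and 3.32. Gbp4, Gbp5 and Gbp6, of the same clusters as the members, had Log2FC of 4.83 ± 0.77 (SE, FDR = 9.6e-05), 4.03 ± 0.66 (SE, FDR = 0.00012) and 4.43 ± 0.71 (SE, FDR = 1e-04) at 5 d. Gbp8 was at 5.57 ± 0.79 (SE, FDR = 3.7e-05), Gbp9 at 2.86 ± 0.48 (SE, FDR = 0.00014), and Tgtp1, an effector IRG gene with a near copy in Tgtp2, at 4.73 ± 0.78 (SE, FDR = 0.00013). Irgq, an IRG-like gene without the interferon response of its relatives, was the exception at 5 d, at -0.26 ± 0.11 (SE, FDR = 0.075). Mx1 and Mx2, antiviral GTPases of the dynamin family, were called at 5 d and not at 8 or 28 d, at 3.46 and 2.52. At 8 d they were at 1.66 ± 0.8 (SE, FDR = 0.14) and 1.06 ± 0.53 (SE, FDR = 0.16) and at 28 d at 1.40 ± 0.84 (SE, FDR = 0.21) and 0.61 ± 0.54 (SE, FDR = 0.4). Without D720 they were at 2.60 (FDR = 0.064) and 1.61 (FDR = 0.079) at 8 d, and without the 4 mice both were called, at 2.86 (FDR = 0.011) and 1.85 (FDR = 0.013). Their differences between times were not tested here.

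Of 15 genes of the interferon-γ route, 14 were in the table and Ifng itself was not among them. 10 were called as increased at 5 d, 11 at 8 d and 10 at 28 d, with a median Log2FC of 2.21, 1.68 and 1.72, and 0 at 2 d. Without D720 11 were called at 5 d, 11 at 8 d and 10 at 28 d, and without the 4 mice 12, 11 and 11. Irf1, a transcription factor induced by interferon-γ that binds GBP and IRG promoters, was at 3.60 ± 0.52 (SE, FDR = 4.6e-05) at 5 d, 2.71 ± 0.54 (SE, FDR = 0.0015) at 8 d and 2.16 ± 0.53 (SE, FDR = 0.0037) at 28 d. The receptor chain Ifngr1 was called at 8 d, at 1.13 ± 0.3 (SE, FDR = 0.012), and at 28 d, at 1.66 ± 0.3 (SE, FDR = 0.00044), and was at 0.53 ± 0.29 (SE, FDR = 0.17) at 5 d. The other chain, Ifngr2, and the kinase Jak1 were not called at any time, with Ifngr2 at -0.13 ± 0.12 (SE, FDR = 0.42) and Jak1 at 0.27 ± 0.097 (SE, FDR = 0.04) at 5 d, the latter under the fold limit, while Jak2 was at 0.98 ± 0.14 (SE, FDR = 3.7e-05). The transcription factors Irf8 and Irf9 were at 2.43 ± 0.48 (SE, FDR = 0.00062) and 2.00 ± 0.36 (SE, FDR = 0.00028) at 5 d. Socs1, an inhibitor of JAK kinases, was at 3.52 ± 0.47 (SE, FDR = 1.9e-05) at 5 d and at 1.79 ± 0.5 (SE, FDR = 0.0092) at 28 d.

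All 14 genes of the type I interferon list were in the table, of which 12 were called as increased at 5 d, 2 at 8 d and 5 at 28 d, and 0 at 2 d, where 9.63%, 9.32%, 12.8% and 0% of all genes were. The median Log2FC was 2.87 at 5 d, 1.00 at 8 d and 1.35 at 28 d. These counts depended on single mice. Without D720 6 were called at 8 d and 10 at 28 d, with medians of 1.72 and 1.61, and without the 4 mice 11 at 8 d and 9 at 28 d, with medians of 1.89 and 1.82. At 5 d 13 were called in both fits. Ifnar2, a receptor chain for type I interferon, was the 1 gene called at all 3 times in the fit with all mice, at 0.74 ± 0.19 (SE, FDR = 0.006) at 5 d and 1.02 ± 0.2 (SE, FDR = 0.00079) at 28 d, while the other chain, Ifnar1, was at 0.36 ± 0.13 (SE, FDR = 0.043) at 5 d. Stat2, a transcription factor under that receptor, was at 1.98 ± 0.31 (SE, FDR = 8.8e-05) at 5 d and 1.30 ± 0.32 (SE, FDR = 0.0066) at 8 d. Irf7, a factor that drives interferon genes, was at 3.58 ± 0.69 (SE, FDR = 0.00049) at 5 d, 1.58 ± 0.67 (SE, FDR = 0.1) at 8 d and 2.11 ± 0.7 (SE, FDR = 0.023) at 28 d. Isg15, a ubiquitin-like modifier, was at 3.74 ± 0.72 (SE, FDR = 0.00051) and 1.26 ± 0.69 (SE, FDR = 0.2), and Ifit1, which binds viral RNA, at 2.87 ± 0.7 (SE, FDR = 0.0039) and 0.81 ± 0.69 (SE, FDR = 0.42) at 5 and 8 d. Without D720 Irf7 was called at 8 d, at 2.30 (FDR = 0.046), while Isg15 was at 1.97 (FDR = 0.093) and Ifit1 at 1.42 (FDR = 0.22), and without the 4 mice they were at 2.55 (FDR = 0.011), 2.18 (FDR = 0.028) and 1.70 (FDR = 0.084). In D720 the list's sum lay within the range of the rAAV-OVA mice at 8 d, as given above.

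Partners of these GTPases at vacuoles and in inflammasomes were read from a list of 16, all in the table. The same number, 5 of 16, was called as increased at 5, 8 and 28 d, 0 at 2 d, and the median Log2FC of the list was 0.01, 0.07 and 0.03. The 5 were the same genes each time, Casp4, Aim2, Casp1, Gsdmd and Trim21. Casp4, the sensor caspase for lipopolysaccharide that GBPs help to reach bacteria, was at 2.97 ± 0.54 (SE, FDR = 0.00031) at 5 d. Gsdmd, whose cleaved form makes pores in membranes, was at 2.25 ± 0.49 (SE, FDR = 0.0015), Casp1 at 2.00 ± 0.46 (SE, FDR = 0.0021) and the DNA sensor Aim2 at 1.76 ± 0.4 (SE, FDR = 0.0023). Trim21, an antibody receptor in the cytosol, was at 2.55 ± 0.42 (SE, FDR = 0.00012). The genes of the autophagy conjugation machinery in the list, which bring GBP and IRG proteins to vacuoles, were not called, with Atg3 at 0.13 ± 0.065 (SE, FDR = 0.14) at 5 d. Map1lc3b at -0.43 ± 0.082 (SE, FDR = 5e-04), Map1lc3a at -0.34 ± 0.098 (SE, FDR = 0.011) and Gabarapl1 at -0.35 ± 0.12 (SE, FDR = 0.035) passed the FDR and were under the fold limit.

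Across the 31 mice the members followed each other closely. On log2 CPM (prior count 2) the Pearson correlation of each member with the members' sum lay between 0.973 for F830016B08Rik and 0.998 for Irgm1, and the lowest between any 2 members was 0.949. Among the 8 other genes most like the sum over the 31 mice were Gbp6 (0.994), Gm12250 (0.992), Cd274 (0.992), Tap1 (0.992), Irf1 (0.990), Zbp1 (0.987) and H2-T23 (0.985). These values describe mice that differ in vector, time and library, which all genes share, and carry no p.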

How the data were processed

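Left hippocampi of 31 mice were profiled by RNA-seq. Per the study's methods and the submitters' processing notes, the authors trimmed reads with fastp, estimated counts per GENCODE M29 transcript with GC-corrected salmon 1.8.0, and added these up by gene. The deposited values are expected (estimated) counts, whole and not normalized. Every deposited gene has 15 or more counts in 15 or more mice. The study itself used DESeq2 1.36.0. A second deposited copy with the same counts was not used, and 0 columns of values were left unused. Of the 824 genes without a symbol, 815 were named by gene ID from a reference table, among them Gm12250 and Trac.

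Groups, times and batches came from the labels. CPM are counts per 1000000, scaled with TMM factors. Tests used edgeR 4.0.16 in R 4.3.3 (quasi-likelihood F-test, robust) on the 8 groups, with 2 surrogate variables (sva 3.50.0), and Benjamini-Hochberg FDR over all 15648 genes. The SE of a Log2FC is its size divided by the root of F. p-values rest on the spread between mice that is left after the 2 surrogate variables, which were estimated from the same counts. The fit was tested on simulated data. Alternatives were DESeq2 1.42.0 with and without ashr 2.2.63, limma 3.58.1 voom, DESeq2's size factors, no covariates, batch covariates, at least 15 counts in every mouse, no fold limit, the mice of 1 day, each batch alone and each mouse left out. Fits without the 4 mice that stood apart, without D720 alone for the lists, and without the 4 and BEC-B541 were added after seeing the data. Counts cover all 10 members in each comparison, and values of each are given at 5, 8 and 28 d, with ranges in the others. From each list genes called at 5, 8 and 28 d come first, up to 6, with Irf1 always given; 1 gene that the rule names is not reported here; Cd8a, Mx1, Mx2, Irgq, Map1lc3a, Map1lc3b, Gabarapl1 and genes named as not called were chosen after their values were seen. The members and lists were chosen with earlier results of these data known. Promoter windows and lengths came from RefSeq (GRCm38.p6) and GENCODE M21, and the counts refer to a later build.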

Additional observations from a re-analysis of the deposited data

Results flagged for a closer look

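In groups of 4 mice, 12 of 91 tested sets of values had a mouse whose gap to its nearest neighbour took up more of the group's range than Dixon's 95% limit allows. Chance gives about 4.55 of 91 (1 in 20), and the sets are not independent because the members move together. 8 of the 12 were the rAAV-control mouse D724 at 5 d, with Gbp2 at 36.4, Irgm1 at 28.7, Irgm2 at 12.8, Igtp at 23.7, Iigp1 at 13.8, Ifi47 at 5.66, the IRG members' sum at 85.1 and the members' sum at 148.2 CPM, each the highest of its group. The sum of the CD8 T cell markers in D724, 13 CPM, was within the range of the other controls at 5 d (7.56 to 14.9 CPM), while Cd8a alone stood at 1.35 CPM in D724 and at 0.108 to 0.371 CPM in the others. In the rAAV-control mouse D843 at 28 d Gbp10 stood at 5.20 CPM, with the nearest mouse at 0.641 CPM, and F830016B08Rik at 0.847 CPM, with the nearest at 0.183 CPM. Irgm1 stood at 55.9 CPM in the rAAV-control mouse BEC-R385 at 2 d, above the nearest value of 33.5 CPM, and F830016B08Rik at 8.81 CPM in the rAAV-OVA mouse BEC-B542 at 2 d, above 1.50 CPM.

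The response of 2 members differed between 5 and 28 d by the interaction test in edgeR. The difference in Log2FC was -2.18 for Gbp7 (FDR = 0.034) and -3.60 for F830016B08Rik (FDR = 0.04). F830016B08Rik rests on few counts in controls, and neither call was kept without surrogate variables.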

How the results depend on the processing

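No paired analysis was possible because replicate numbers were given in order within groups and join no mice across them. In all fits run, every member tested was called at 5 d and none at 2 d, and the response at 5 d against 8 d and at 8 d against 28 d and the step from 5 to 8 d in rAAV-OVA mice gave 0 calls. At 8 d the 10 calls became 0 without surrogate variables, 2 with the batch label in their place, 0 with only the mice of the day, and 0 to 10 with a mouse left out. At 28 d they became 0 in batch 2 alone (8 mice, no surrogate variables) and 5 to 10 with a mouse left out. For the response at 5 d against 28 d, the 2 calls became 1 with limma voom, 0 without surrogate variables, 0 with the batch label, 1 of the 7 members that had at least 15 counts in every mouse, and 0 to 2 with a mouse left out. From 2 to 5 d in rAAV-OVA mice, the 4 calls became 2 with ashr, 8 without surrogate variables, 10 with the batch label, 6 with the batch label and the surrogate variables, 6 with limma voom, 2 of 7 with at least 15 counts in every mouse, 10 without the 4 mice that stood apart, 10 without these and surrogate variables, and 0 to 8 with a mouse left out. From 8 to 28 d in rAAV-OVA mice, the 0 calls became 1 with DESeq2, 2 with limma voom and 0 to 1 with a mouse left out. Between 2 and 28 d in controls, they became 2 without the 4 mice, with or without surrogate variables. The ratio of the members' sum at 8 d became 14.9 without the 4 mice and ran from 2.64 to 14.9 with a mouse left out. Gbp3 at 2 d reversed to a Log2FC of -0.22 in batch 1 alone, -0.24 without the 4 mice, -0.24 without these and surrogate variables, and -0.091 without BEC-B542; with a mouse left out it ran from -0.091 to 0.71. Causes were not tested. Surrogate variable 1 and the log2 members' sum had r = -0.569 over the 31 mice as deviations from group means. Depth limits the controls' values of Gbp10 and F830016B08Rik, which rest on few counts; intervals for them cover counting error only and are not given.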

Other observations

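The balance between both families changed little between groups. The 4 GBP members made up 43.8% ± 1.23 (SD, n = 4) of the members' sum in rAAV-OVA mice and 41.5% ± 4.59 (SD, n = 4) in rAAV-control mice at 5 d. At 28 d their share was 38.7% ± 2.45 against 41.1% ± 2.98 (SD, n = 4 each). The ranges overlapped at both times, and over all 8 groups the share lay between 35.0% and 51.4% in single mice.

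In the rAAV-OVA mouse BEC-B541 at 2 d, the members' sum of 81.7 CPM was below all 4 controls of that time, while BEC-B542, of the same group and batch, held the highest sum of any mouse at 2 d. Genes of the type I interferon list summed to 178 CPM in BEC-B541 and 410 CPM in BEC-B542, and those of the interferon-γ route to 447 and 817 CPM. The list of vacuole and autophagy partners summed to 1210 and 1220 CPM in these mice.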
